A study of Mus musculus with 50 samples.

Results

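The 8 genes described here serve the use of fatty acids and butyrate as fuel by the colon: the nuclear receptors Ppara and Pparg, the butyrate transporters Slc5a8 and Slc16a1, the fatty acid oxidation genes Cpt1a, Acadm and Acads, and the kinase gene Pdk4. They were taken by gene symbol, from a list drawn up with earlier results of these data known. They are 8 of the 56691 genes in the deposited table. The set is named after ketogenesis too, but no enzyme of ketone body synthesis is among the 8, so a list of ketone body genes is counted below. Poly(A) RNA was sequenced from the colon of BALB/c mice in 50 libraries, 10 in each of 5 groups. The groups were TNBS mice given vehicle, TNBS mice given A1007 at 10, 30 or 90 mpk, and sham mice. TNBS (trinitrobenzene sulfonic acid) is a hapten that provokes colitis when put into the colon, and A1007, by the series title, is an oral drug that activates AhR, the aryl hydrocarbon receptor, which binds small ligands and then regulates genes. The unit mpk is printed as in the labels, which put every library in batch 1 and say of the sham group no more than that name. Age, sex, dosing schedule and the time from TNBS to sampling are not stated in the labels.

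Colonocytes, the absorptive cells of the colon surface, draw much of their energy from butyrate made by bacteria. Slc5a8 brings butyrate in together with sodium and Slc16a1 together with protons, and the acid is then shortened by beta-oxidation in mitochondria, where Acads acts on short and Acadm on medium chains. Long chains enter mitochondria through the carnitine shuttle, whose first enzyme in most tissues is Cpt1a. Pdk4 phosphorylates and so turns off pyruvate dehydrogenase, which keeps glucose carbon out of oxidation. Ppara and Pparg sense fatty acids and their derivatives, pair with retinoid X receptors (RXR) on DNA, and switch on genes of fat oxidation, ketone synthesis and fat storage. Pparg is abundant both in colonocytes and in fat cells.

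The upstream windows of 4 genes are shown because these genes carry the findings below: Slc16a1 was the gene called lower in mice given A1007, Ppara and Slc5a8 had the largest falls in vehicle mice, and Cpt1a was the gene whose window held no match to the core letters bound by AhR. Each window is the 250 bases before the gene's start in RefSeq's table for GRCm38.p6, written 5′ to 3′ on the gene's strand. Coordinates of this build are not those of the deposited table, which uses GRCm39. Capitals mark the AhR core GCGTG on either strand, where the other strand reads CACGC.
Slc16a1, chr3:104638414-104638663, plus strand: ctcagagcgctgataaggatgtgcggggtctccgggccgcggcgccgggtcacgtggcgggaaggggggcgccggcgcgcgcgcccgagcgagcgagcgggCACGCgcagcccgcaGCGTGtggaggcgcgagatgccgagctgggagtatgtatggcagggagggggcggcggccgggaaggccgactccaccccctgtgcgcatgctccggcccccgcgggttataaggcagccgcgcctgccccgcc
Ppara, chr15:85735526-85735775, plus strand: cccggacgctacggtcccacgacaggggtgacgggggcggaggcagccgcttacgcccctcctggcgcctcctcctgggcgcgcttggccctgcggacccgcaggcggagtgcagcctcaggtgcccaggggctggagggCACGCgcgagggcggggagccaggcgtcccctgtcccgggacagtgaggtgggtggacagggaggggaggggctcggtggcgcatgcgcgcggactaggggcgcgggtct
Slc5a8, chr10:88885742-88885991, plus strand: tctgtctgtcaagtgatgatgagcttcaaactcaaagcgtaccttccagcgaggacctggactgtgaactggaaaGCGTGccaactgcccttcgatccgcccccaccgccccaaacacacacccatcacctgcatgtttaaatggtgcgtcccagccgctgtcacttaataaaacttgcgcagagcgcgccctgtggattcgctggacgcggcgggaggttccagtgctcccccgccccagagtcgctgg
Cpt1a, chr19:3323051-3323300, plus strand: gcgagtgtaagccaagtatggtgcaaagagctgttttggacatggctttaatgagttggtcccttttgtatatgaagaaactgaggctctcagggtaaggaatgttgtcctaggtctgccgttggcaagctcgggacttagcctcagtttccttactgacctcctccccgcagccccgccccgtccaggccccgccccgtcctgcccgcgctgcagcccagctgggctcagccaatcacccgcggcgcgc
The core was found in the windows of 7 of the 8 genes, counting the 3 windows of Pparg together, against 28.2% of all 32851 windows of this length and 52.0% of the 10574 windows with at least 58% G and C, a base content that every one of the 4 windows shown has. Counts here are by gene and shares by window, so the 3 windows gave Pparg more chances of a match. Its windows starting at 115362099 and 115421816 held no core, and the latter had 40.8% G and C. Slc16a1 had 2 cores, at -149 and -134 from the start, Ppara had 1 at -110 and Slc5a8 had 1 at -175. The paired PPAR and RXR motif DR1, made of AGGTCA repeated after a single base, was in 0 of the 8 genes' windows on either strand and in 0.0335% of all windows. The single site AGGTCA, which lies inside that motif, was in 3 of the 8 genes and in 14.0% of all windows. The letters CACGTG, which overlap the core in part, were in the Slc16a1 window and in 6.02% of all windows. These are matches of letters in a short window, and binding was not measured.

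Positions on GRCm39 follow the deposited table. Ppara (ENSMUSG00000022383) spans chr15:85619184-85687020, Pparg (ENSMUSG00000000440) chr6:115337912-115467360, Slc5a8 (ENSMUSG00000020062) chr10:88721854-88765377 and Cpt1a (ENSMUSG00000024900) chr19:3372334-3435733, all on the plus strand. Slc16a1 (ENSMUSG00000032902) lies at chr3:104545984-104565778 on the plus strand and Acadm (ENSMUSG00000062908) at chr3:153627994-153650269 on the minus strand. Acads (ENSMUSG00000029545) at chr5:115248358-115257405 and Pdk4 (ENSMUSG00000019577) at chr6:5483351-5496309 are on the minus strand.

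Library totals ran from 14373337 to 20446967 counts (median 17102331). All 8 genes passed the filter on low counts with 17928 genes, and the fewest counts of any of them in a library were 18, for Ppara in a vehicle mouse. Levels are FPKM, read counts set relative to the exon length of a gene and to the library total, as deposited, with the SD over the 10 libraries of a group. Each library is called a mouse here, although the labels number replicates without saying in words that each is a separate animal, so p-values measure the spread between these libraries. A gene was called where the Benjamini-Hochberg adjusted p of edgeR's quasi-likelihood test, over all 17928 genes, was under 0.05. Every adjusted p below comes from that test unless another is named, and fold changes are on the log2 scale. A few libraries stood apart. Xist, abundant in the other 48 libraries at 141.0 CPM (counts as a rate of the library total) or more, was at 0.935 CPM in A1007 10 mpk replicate 6 and 1.80 CPM in A1007 30 mpk replicate 1. The summed CPM of 10 pancreatic acinar genes was 1377 in vehicle replicate 2, 1558 in vehicle replicate 5, 46784 in vehicle replicate 6 and 3417 in A1007 30 mpk replicate 2, against at most 94.7 in sham mice. These 4 are the libraries above 10 times the highest sham sum, a limit set after seeing the data. Below it, 4 others lay between 428 and 917 CPM, A1007 10 mpk replicate 7, A1007 90 mpk replicates 2 and 4 and vehicle replicate 9, and they were kept when the 4 were left out.

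The tissue label was met in all libraries: the summed CPM of 10 epithelial markers such as Epcam and Krt8 ran from 6781 to 11452, and no marker was at 0 in every library of a group. The epithelial sum averaged 8557 ± 899 CPM in vehicle mice, 8883 ± 1116 at 10 mpk, 9677 ± 578 at 30 mpk, 8584 ± 715 at 90 mpk and 9356 ± 551 in sham mice. The neutrophil and macrophage marker sums moved with the groups far more. The 8 neutrophil markers summed to a median of 280.0 CPM (28.0 to 4586) in vehicle mice, 46.8 (13.2 to 571.1) at 10 mpk, 23.9 (10.7 to 45.6) at 30 mpk, 19.96 (11.9 to 44.2) at 90 mpk and 5.53 (4.38 to 11.2) in sham mice. The 10 macrophage markers averaged 528.7 ± 199 CPM in vehicle mice, 397.7 ± 103 at 10 mpk, 269.8 ± 28.6 at 30 mpk, 269.7 ± 38.3 at 90 mpk and 168.9 ± 16.9 in sham mice. The leukocyte gene Ptprc averaged 115.8 ± 52.0 CPM in vehicle mice, 116.3 ± 51.0 at 10 mpk, 99.6 ± 27.5 at 30 mpk, 111.0 ± 32.6 at 90 mpk and 78.5 ± 25.4 in sham mice. Smooth muscle markers averaged 6044 ± 2061 CPM in vehicle mice, 7393 ± 1154 at 10 mpk, 7740 ± 1661 at 30 mpk, 7849 ± 1403 at 90 mpk and 5658 ± 621 in sham mice. In whole tissue, fewer cells of a type and less RNA per cell cannot be told apart.

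Most of the 8 genes were lower in colitis. In vehicle mice 6 of the 8 were called lower than in sham mice and 0 were called higher, where 31.7% of all genes tested were called in either direction and 13.5% were called lower. Ppara, the receptor that drives fat oxidation, fell by 1.33, Slc5a8 by 0.68, Pparg by 0.43, Cpt1a by 0.35, Acadm by 0.32 and Acads by 0.24. Slc16a1 and Pdk4 were not called. The median over the 8 genes was -0.34, beside 0.02 over all genes tested. The epithelial sum was lower in vehicle mice too, and its part in these falls was tested only as a covariate. With the log2 epithelial sum in the fit, 3 of the 8 genes were called, Ppara, Pparg and Cpt1a, while Acadm was at -0.31 (adjusted p = 0.0624), Acads at -0.22 (adjusted p = 0.0752) and Slc5a8 at -0.45 (adjusted p = 0.189). Over all 17928 genes that fit called 1817 lower and 2659 higher, against 2412 and 3269 without the covariate.

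**Figure D1:**
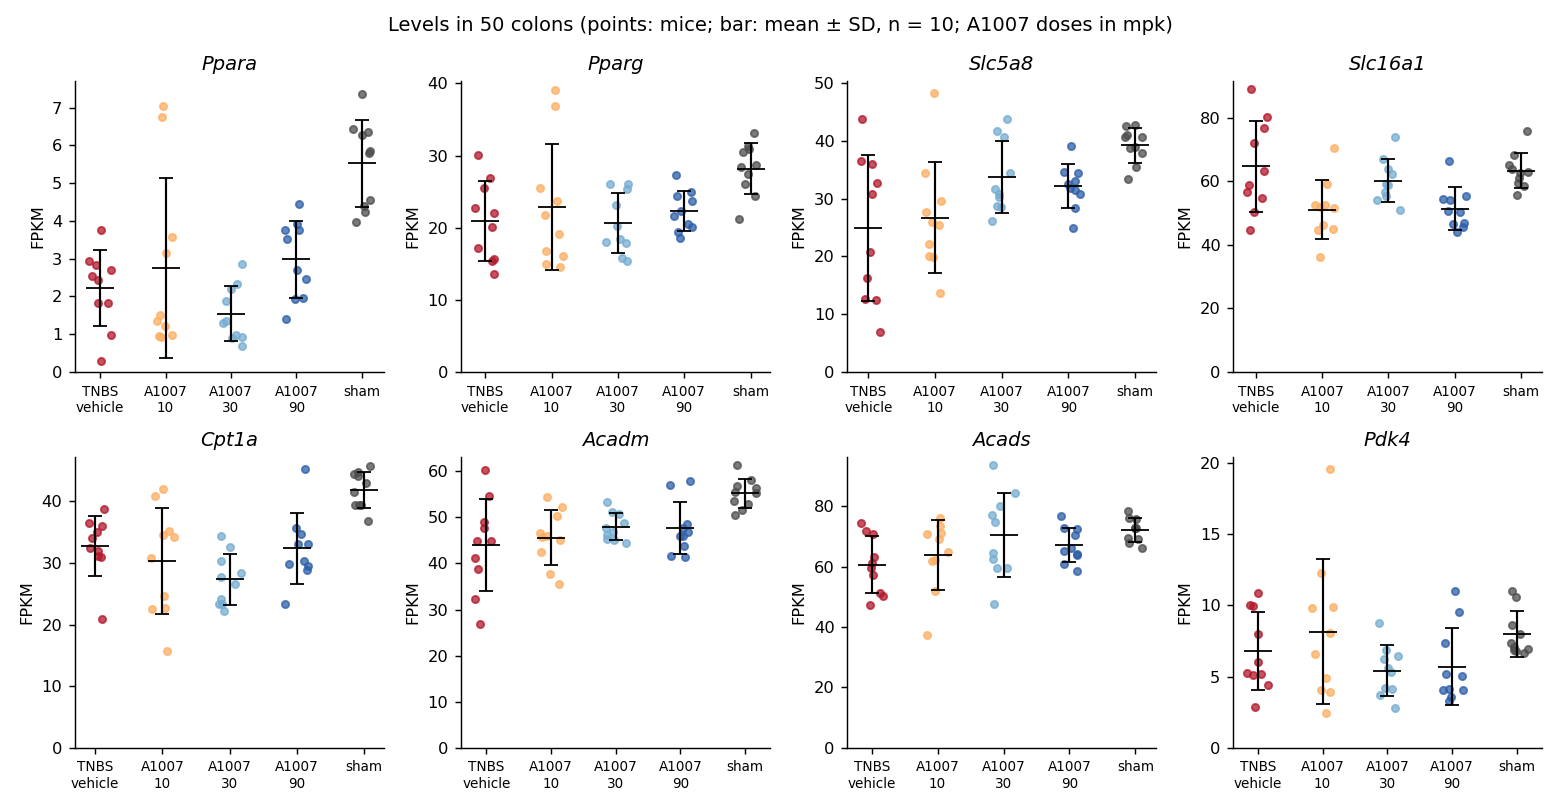
FPKM of the 8 genes in each mouse (points) with the group mean and SD (bars, n = 10 mice), each on its own linear axis from 0, for TNBS mice given vehicle or A1007 at 10, 30 and 90 mpk and for sham mice. Ppara in the 10 vehicle mice lay below all 10 sham mice, while the Slc16a1 range of vehicle mice, 44.8 to 88.9 FPKM, spanned that of sham mice, 55.7 to 75.7 FPKM.

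Ppara had the largest fall of the 8 genes. It ran from 0.3 to 3.75 FPKM (median 2.49) in vehicle mice, from 0.92 to 7.05 (median 1.42) at 10 mpk, from 0.7 to 2.85 (median 1.32) at 30 mpk, from 1.4 to 4.44 (median 3.11) at 90 mpk and from 3.98 to 7.35 (median 5.83) in sham mice. The vehicle and sham groups did not overlap, a separation with the lower values in vehicle mice that 1.09% of all genes tested shared. The mean was 2.21 ± 1.01 FPKM in vehicle mice against 5.52 ± 1.15 FPKM in sham mice (log2 fold change -1.33 with an SE of 0.26, adjusted p = 0.000599). The call held when any 1 library was left out, with values from -1.45 to -1.21. At 10 mpk the mice split, with replicates 3 and 8 at 6.76 and 7.05 FPKM, inside the sham range, replicates 2 and 4 at 3.15 and 3.57 FPKM, and the other 6 at 0.92 to 1.5 FPKM. No dose was called against vehicle for Ppara: the difference was 0.33 (95% interval -0.41 to 1.06, adjusted p = 0.626) at 10 mpk, -0.49 (-1.23 to 0.26, adjusted p = 0.321) at 30 mpk and 0.42 (-0.31 to 1.16, adjusted p = 0.458) at 90 mpk. These intervals are wide, reaching past 1 on the log2 scale at 10 and 90 mpk and past -1 at 30 mpk.

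Pparg, the receptor best known for driving fat storage and abundant in colonocytes, was higher than Ppara per length in every group. It ran from 13.7 to 30.1 FPKM (median 21.1) in vehicle mice, from 14.6 to 39.1 (median 20.4) at 10 mpk, from 15.4 to 26.1 (median 19.4) at 30 mpk, from 18.6 to 27.3 (median 22.0) at 90 mpk and from 21.2 to 33.1 (median 28.5) in sham mice. The groups overlapped, and 5 of the 10 vehicle mice lay below the lowest sham mouse. Pparg averaged 20.9 ± 5.48 FPKM in vehicle mice against 28.2 ± 3.55 FPKM in sham mice (log2 fold change -0.43 with an SE of 0.12, adjusted p = 0.0106). The same replicates 3 and 8 at 10 mpk were again the highest, at 39.1 and 36.9 FPKM, above every sham mouse. Against vehicle mice the differences were 0.13, 0.01 and 0.07 at 10, 30 and 90 mpk, none called, and each 95% interval lay within -0.31 and 0.45. Fat cells also make Pparg: the summed CPM of 8 fat cell markers averaged 341.7 ± 330.7 in vehicle mice, 232.9 ± 168 at 10 mpk, 201.3 ± 155 at 30 mpk, 169.1 ± 123 at 90 mpk and 481.0 ± 358 in sham mice, and its part in the Pparg levels was not tested.

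Slc5a8, the sodium-coupled butyrate transporter of the colonocyte surface, varied widely among vehicle mice. It ran from 6.95 to 43.8 FPKM (median 25.7) in vehicle mice, from 13.7 to 48.3 (median 25.7) at 10 mpk, from 26.2 to 43.8 (median 31.2) at 30 mpk, from 24.9 to 39.2 (median 32.2) at 90 mpk and from 33.4 to 42.7 (median 39.8) in sham mice. Among vehicle mice, 7 lay below the lowest sham mouse and 1 lay above the highest. The mean was 24.9 ± 12.6 FPKM in vehicle mice against 39.2 ± 3.005 FPKM in sham mice (log2 fold change -0.68 with an SE of 0.23, adjusted p = 0.0313). This call rested on single mice: it was lost without vehicle replicate 2, 5, 6 or 7, with adjusted p up to 0.0600 and values from -0.80 to -0.58 over all mice left out in turn. Without the 4 libraries with pancreatic genes the value was -0.43 (adjusted p = 0.160).

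At 30 mpk all 10 mice had more Slc5a8 than the median vehicle mouse, yet the groups overlapped. Slc5a8 averaged 33.7 ± 6.198 FPKM at 30 mpk and 24.9 ± 12.6 FPKM in vehicle mice, a log2 difference of 0.49 (SE 0.21) that was not called (adjusted p = 0.0704). It was called with all 50 mice in 1 fit (0.49, adjusted p = 0.0389) and with limma on log2(FPKM + 0.5) (0.61, adjusted p = 0.0341). Leaving out vehicle replicate 4, 8 or 10 also brought the call, with values up to 0.61 and adjusted p down to 0.0218. At 10 mpk the difference was 0.12 (95% interval -0.30 to 0.54, adjusted p = 0.769), and at 90 mpk 0.36 (-0.06 to 0.78, adjusted p = 0.237). The SD among mice was 12.6 FPKM in vehicle mice, 9.53 at 10 mpk, 6.198 at 30 mpk, 3.80 at 90 mpk and 3.005 in sham mice, so the mice given A1007 at 30 and 90 mpk were more alike than vehicle mice.

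Slc16a1, the proton-coupled transporter of butyrate and lactate, went another way. It ran from 44.8 to 88.9 FPKM (median 61.1) in vehicle mice, from 36.3 to 70.5 (median 51.8) at 10 mpk, from 50.9 to 73.8 (median 59.0) at 30 mpk, from 44.0 to 66.5 (median 50.5) at 90 mpk and from 55.7 to 75.7 (median 62.9) in sham mice. In vehicle mice 3 values were above every sham mouse and 3 were below every sham mouse. The means were 64.6 ± 14.2 FPKM in vehicle mice against 63.3 ± 5.60 FPKM in sham mice, with a log2 difference of 0.03 (95% interval -0.17 to 0.22, adjusted p = 0.842).

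Slc16a1 was lower in mice given A1007 at 10 and at 90 mpk. At 90 mpk it averaged 51.4 ± 6.64 FPKM against 64.6 ± 14.2 FPKM in vehicle mice (log2 fold change -0.35 with an SE of 0.10, adjusted p = 0.0126), and 9 of the 10 treated mice were below the vehicle median. This call held when any 1 of the 40 TNBS libraries was left out. At 10 mpk the mean was 51.0 ± 9.22 FPKM against 64.6 ± 14.2 FPKM in vehicle mice (-0.34 with an SE of 0.10, adjusted p = 0.0399). Slc16a1 at 10 mpk was not called with only the 2 groups fitted (-0.34, adjusted p = 0.215) or by a rank-sum test (adjusted p = 0.248). The call at 10 mpk was lost without the 2 libraries low in Xist (-0.32, adjusted p = 0.0742) and rested on single mice: leaving out A1007 10 mpk replicate 1, 2, 6, 7, 8 or 9 or vehicle replicate 1, 3, 8 or 10 ended it, with adjusted p up to 0.0798 and values from -0.40 to -0.28. At 30 mpk, between these doses, the difference was -0.07 (95% interval -0.27 to 0.13, adjusted p = 0.625). The Slc16a1 means did not follow dose: 30 mpk stood 0.27 above 10 mpk on the log2 scale (adjusted p = 0.142) and 90 mpk at -0.28 relative to 30 mpk (adjusted p = 0.143), neither called.

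Cpt1a, which makes acylcarnitines at the mitochondrial entry, was lower in every group with TNBS. It ran from 20.8 to 38.8 FPKM (median 33.2) in vehicle mice, from 15.7 to 42.0 (median 32.5) at 10 mpk, from 22.2 to 34.4 (median 27.1) at 30 mpk, from 23.3 to 45.2 (median 31.7) at 90 mpk and from 36.8 to 45.7 (median 42.2) in sham mice. All vehicle mice were below the sham median, and 9 of 10 were below the lowest sham mouse. The mean was 32.8 ± 4.91 FPKM in vehicle mice against 41.8 ± 2.98 FPKM in sham mice (log2 fold change -0.35 with an SE of 0.07, adjusted p = 0.000395), and the call held when any 1 library was left out (-0.38 to -0.32). At 30 mpk Cpt1a averaged 27.3 ± 4.16 FPKM against 32.8 ± 4.91 FPKM in vehicle mice (-0.23, 95% interval -0.48 to 0.02, adjusted p = 0.155). That difference was called by a rank-sum test (adjusted p = 0.0424) and with quality weights in limma voom (-0.26, adjusted p = 0.0354). The differences at 10 and 90 mpk were -0.11 (adjusted p = 0.627) and -0.04 (adjusted p = 0.872).

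The acyl-CoA dehydrogenases Acadm and Acads, which start each round of beta-oxidation, fell less. Acadm ran from 26.9 to 60.3 FPKM (median 44.8) in vehicle mice, from 35.6 to 54.5 (median 45.9) at 10 mpk, from 44.6 to 53.3 (median 47.2) at 30 mpk, from 41.3 to 58 (median 46.4) at 90 mpk and from 50.6 to 61.5 (median 55.4) in sham mice. Acads ran from 47.4 to 74.4 FPKM (median 60.3) in vehicle mice, from 37.3 to 76.1 (median 67.1) at 10 mpk, from 47.6 to 93.6 (median 69.7) at 30 mpk, from 58.6 to 76.6 (median 65.6) at 90 mpk and from 66.2 to 78.6 (median 72.7) in sham mice. For both genes the groups overlapped, with 8 vehicle mice below the lowest sham mouse for Acadm and 7 for Acads. Acadm averaged 44.0 ± 9.94 FPKM in vehicle mice against 55.2 ± 3.22 FPKM in sham mice (log2 fold change -0.32 with an SE of 0.10, adjusted p = 0.0172). Acads averaged 60.7 ± 9.50 FPKM in vehicle mice against 72.2 ± 3.97 FPKM in sham mice (-0.24 with an SE of 0.08, adjusted p = 0.0197). Neither was called at any dose against vehicle. Acads came nearest at 30 mpk, with 5 mice above every vehicle mouse and a difference of 0.24 (95% interval 0.02 to 0.46, adjusted p = 0.0855). It was called there without A1007 30 mpk replicate 10 (0.28, adjusted p = 0.0434).

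Pdk4, a PPAR target in many tissues, was low and spread out. It ran from 2.88 to 10.9 FPKM (median 5.63) in vehicle mice, from 2.41 to 19.6 (median 7.33) at 10 mpk, from 2.81 to 8.78 (median 5.49) at 30 mpk, from 3.26 to 11.01 (median 4.56) at 90 mpk and from 6.66 to 11.1 (median 7.20) in sham mice. The groups overlapped, and the highest value again belonged to replicate 3 at 10 mpk. Vehicle and sham mice averaged 6.77 ± 2.74 and 8.003 ± 1.62 FPKM (-0.23, 95% interval -0.65 to 0.18, adjusted p = 0.384). Against vehicle the differences were 0.27 at 10 mpk, -0.30 at 30 mpk and -0.27 at 90 mpk, with adjusted p of 0.616, 0.452 and 0.564.

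Few of the 8 genes were called in mice given A1007 relative to vehicle, and a gene not called is not shown to be unchanged. The counts were not tested against the shares of all genes given beside them. At 10 mpk 1 of the 8 was called, Slc16a1, lower, beside 5.75% of all genes in either direction and 2.91% lower. At 30 mpk 0 of the 8 were called by edgeR, beside 31.4% of all genes, while 2 had an unadjusted p under 0.05, Slc5a8 and Acads. At 90 mpk Slc16a1 was again the 1 gene called, beside 18.2% of all genes in either direction and 11.1% lower. Over dose steps from vehicle to 90 mpk 0 of the 8 had a called trend, beside 19.3% of all genes: Slc5a8 changed by 0.15 per step (adjusted p = 0.119) and Slc16a1 by -0.08 per step (adjusted p = 0.117). The 3 comparisons share the vehicle mice, so a single high or low vehicle mouse moves all of them.

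**Figure D2:**
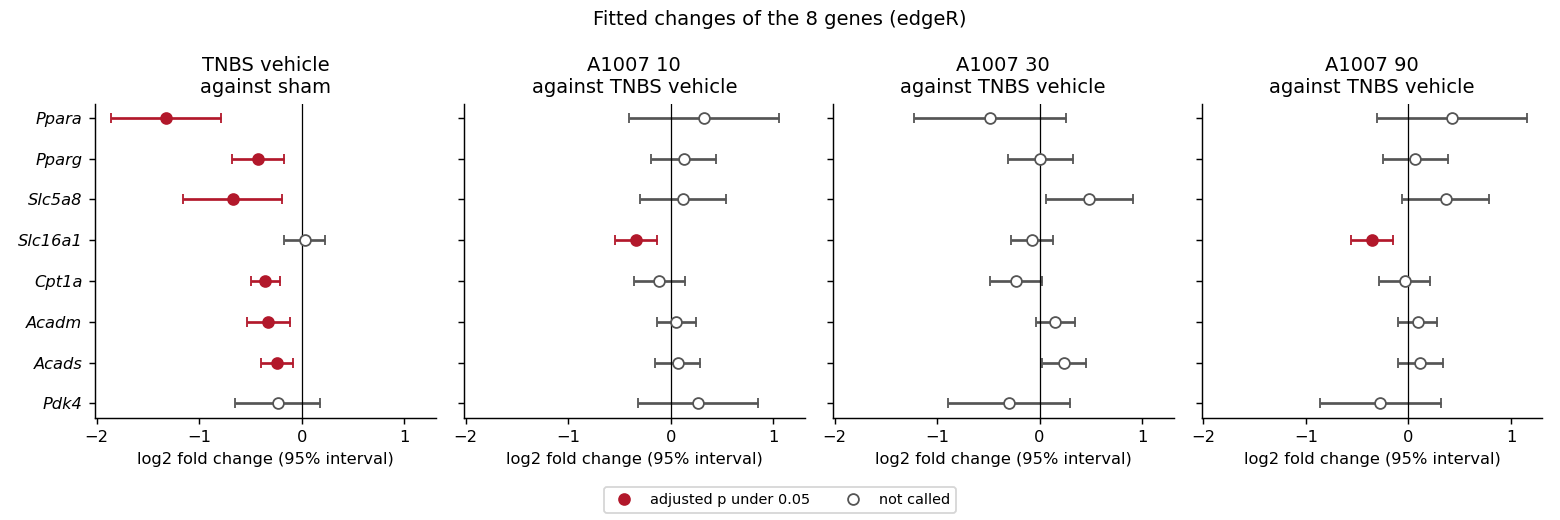
Log2 fold changes of the 8 genes with 95% intervals from edgeR for vehicle against sham and for each A1007 dose against vehicle; filled points were called at an adjusted p under 0.05. The 6 filled points left of 0 in the first panel are Ppara, Pparg, Slc5a8, Cpt1a, Acadm and Acads, and Slc16a1 is the filled point at 10 and 90 mpk.

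Set against sham, mice given A1007 still had lower levels of most of the 8 genes. At 10 mpk 5 of the 8 were called lower and 0 higher, beside 36.0% of all genes in either direction and 14.7% lower. At 30 mpk 5 were called lower, beside 59.0% of all genes in either direction and 28.7% lower, and at 90 mpk 7 were, beside 45.2% in either direction and 21.9% lower. Ppara was at -1.001 relative to sham at 10 mpk (adjusted p = 0.0407), a call lost without the 2 libraries low in Xist (-0.91, adjusted p = 0.0713), at -1.83 at 30 mpk (adjusted p = 8.1e-07) and at -0.92 at 90 mpk (adjusted p = 0.000572). Cpt1a was at -0.46, -0.60 and -0.40 at these doses (adjusted p of 0.0104, 3.01e-07 and 0.000456). At 30 mpk neither Ppara nor Cpt1a overlapped the sham mice, a separation downward that 4.89% of all genes shared. Pdk4 was called lower than sham at 30 mpk (-0.55, adjusted p = 0.00729), a call lost with all 50 mice in 1 fit (-0.53, adjusted p = 0.0961). At 90 mpk it was at -0.52 (adjusted p = 0.0585), which passed with DESeq2 (adjusted p = 0.0398), with limma on FPKM (-0.54, adjusted p = 0.0220) and with voom weights (-0.71, adjusted p = 0.00551). Slc16a1, not called in vehicle mice, was lower than sham at 10 mpk (-0.31, adjusted p = 0.0144) and at 90 mpk (-0.33, adjusted p = 0.000396), and at -0.05 at 30 mpk (adjusted p = 0.482). Acads at 30 mpk was at -0.02 relative to sham (95% interval -0.20 to 0.16). With all 50 mice in 1 fit, 3 of the 8 were called at 30 mpk and 4 at 90 mpk, beside 9008 and 4399 of all 17928 genes. These comparisons and the one of vehicle mice share the sham mice.

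Between doses 0 of the 8 genes were called by edgeR, beside 2.01% of all genes for 30 against 10 mpk, 0.368% for 90 against 30 mpk and 0.1% for 90 against 10 mpk. At an unadjusted p under 0.05, Ppara and Slc16a1 differed in both comparisons with 30 mpk. Ppara was higher at 90 than at 30 mpk, at 2.99 ± 1.02 against 1.54 ± 0.73 FPKM (log2 difference 0.91, 95% interval 0.16 to 1.65, adjusted p = 0.182), and Slc16a1 was lower, at 51.4 ± 6.64 against 60.2 ± 6.74 FPKM (-0.28, 95% interval -0.49 to -0.08, adjusted p = 0.143). Both were called when only these groups were fitted (adjusted p = 0.0189 for Ppara and 0.00857 for Slc16a1), by a rank-sum test (0.0314 and 0.0260) and with quality weights in voom (0.0384 and 0.0283). Acads, Pparg, Acadm and Cpt1a had 95% intervals within -0.44 and 0.44 in all 3 comparisons between doses.

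Ordered by group mean, Ppara, Pparg, Cpt1a, Acadm, Acads and Slc5a8 were highest in sham mice, and below sham no neighbouring groups were called apart for any of these 6 genes by edgeR. For Ppara the order downward was sham, 90 mpk, 10 mpk, vehicle and 30 mpk. Slc5a8 ran downward as sham, 30 mpk, 90 mpk, 10 mpk and vehicle, and 30 mpk did not pass against sham (-0.20, adjusted p = 0.0528). That difference was called in 6 of the 11 alternatives, at -0.20 to -0.26 and adjusted p of 0.00546 to 0.0489, among them DESeq2, limma on FPKM and the epithelial covariate. Slc16a1 was highest in vehicle mice and lowest at 10 mpk. Across genes and per length, sham mice had most Acads at 72.2 FPKM, then Slc16a1 at 63.3, Acadm at 55.2, Cpt1a at 41.8, Slc5a8 at 39.2, Pparg at 28.2, Pdk4 at 8.003 and Ppara at 5.52 FPKM. The coefficient of variation among vehicle mice was 50.6% for Slc5a8 and 45.5% for Ppara, against 7.67% and 20.8% in sham mice.

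Levels of several of the 8 genes were lower in vehicle mice with higher neutrophil markers, a relation that was looked at after the values had been seen. Over the 10 vehicle mice the log2 level of Acads correlated with the log2 summed CPM of the 8 neutrophil markers at Pearson's r = -0.87 (adjusted permutation p = 0.0226) and Spearman's rho = -0.78 (0.0418), with p-values adjusted over 16 relations in 2 groups. Acadm had r = -0.83 and rho = -0.79, Pparg r = -0.81 and rho = -0.78, and Slc16a1 r = -0.81 and rho = -0.81, each with adjusted permutation p of 0.0226 for r and 0.0418 for rho. Without the 2 mice farthest from the median of the markers, vehicle replicates 1 and 9, r was -0.85 for Acads, -0.68 for Acadm, -0.69 for Pparg and -0.67 for Slc16a1 over 8 mice. For Slc5a8 r was -0.79 (adjusted permutation p = 0.0267), -0.67 without these mice, and rho was -0.60 (0.168). Ppara had r = -0.68 (0.0491) and rho = -0.67 (0.107), and with r = -0.31 without these mice the relation rested on them. Cpt1a (r = -0.51, adjusted permutation p = 0.237) and Pdk4 (r = -0.16, 0.755) showed none that passed. Among mice given A1007 at 10 mpk none of the 8 relations passed the adjustment. By Pearson's r the strongest was that of Slc5a8 at r = -0.65 (adjusted permutation p = 0.0974), but r was -0.12 without the 2 mice of that dose farthest from the median. By Spearman's rho the strongest was that of Slc16a1 at -0.68 (adjusted permutation p = 0.107). Acadm had r = -0.57 (adjusted permutation p = 0.163), and -0.88 without those 2 mice.

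**Figure D3:**
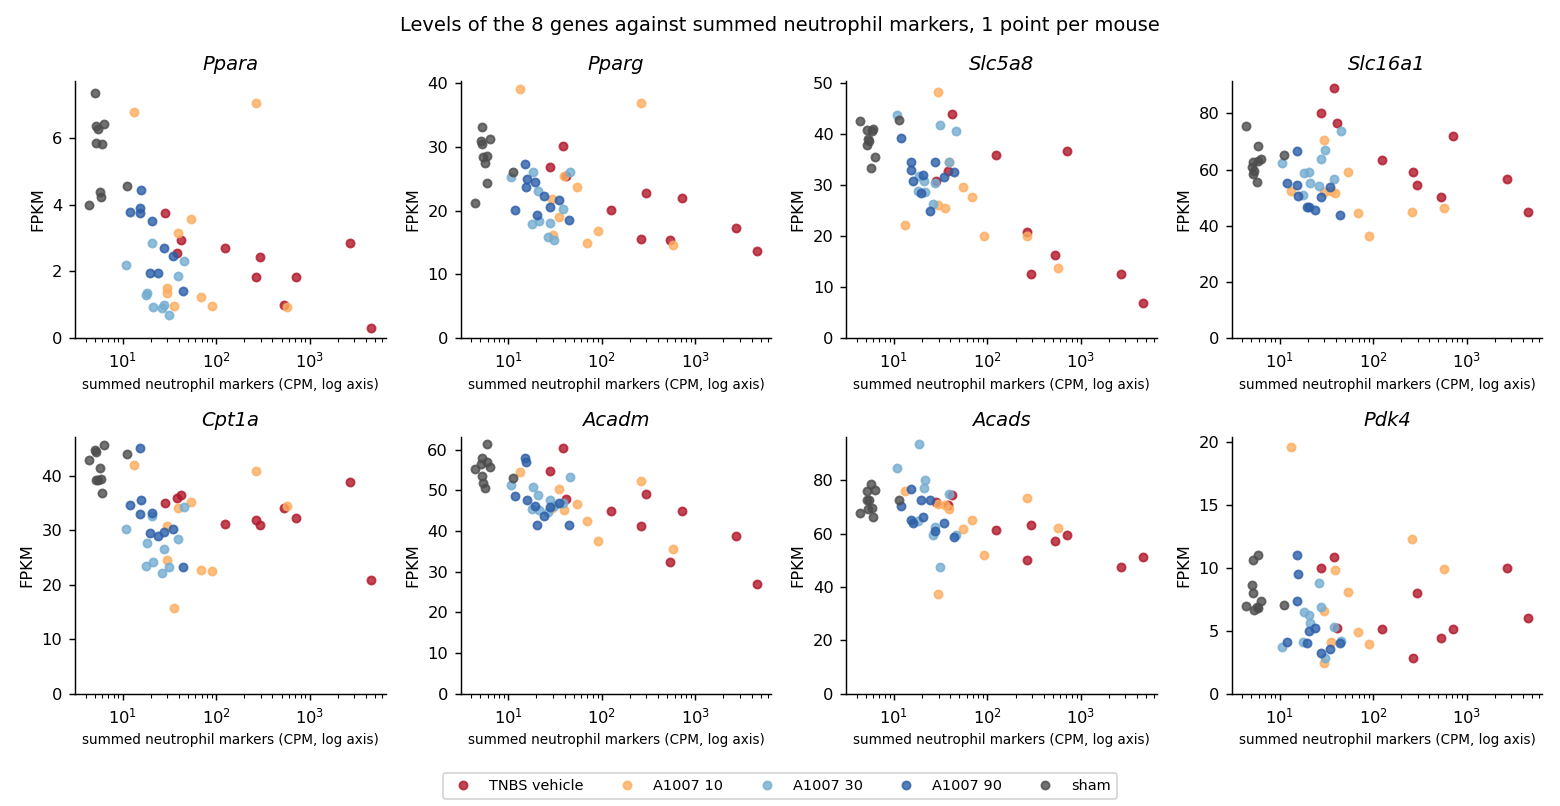
FPKM of the 8 genes (linear axis from 0) against the summed CPM of 8 neutrophil markers (log axis), 1 point per mouse, coloured by group. Sham mice sit at the left with marker sums of 4.38 to 11.2 CPM, and the vehicle mouse at the far right, replicate 9 with 4586 CPM, has the lowest level of that group for Ppara, Pparg, Slc5a8, Slc16a1, Cpt1a and Acadm.

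Vehicle replicate 9 was the lowest of its group for 6 of the 8 genes and replicate 3 the highest for 4, Pparg, Slc16a1, Acadm and Pdk4. At 10 mpk replicates 3 and 8 were the 2 highest for Ppara, Pparg, Cpt1a, Acadm, Acads and Pdk4, but had 22.2 and 19.9 FPKM of Slc5a8, below the group median. Replicate 8 had 263.7 CPM of neutrophil markers and replicate 3 had 13.2 CPM. Over all 50 libraries, with each group's mean removed, log2 CPM of Ppara correlated with Pparg at r = 0.77 and with Cpt1a at r = 0.75, and Slc16a1 with Acadm at 0.71 and with Slc5a8 at 0.67. Slc5a8 and Pdk4 were at -0.28, and Slc5a8 with Acads at -0.02. These correlations describe libraries that share tissue makeup and depth, and carry no test.

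The genes whose profile over the 50 libraries was most like each of the 8 were found among 14995 tested genes by Pearson's r of log2 CPM, given first over all libraries and then with group means removed. For Cpt1a it was Hadha, a subunit of the mitochondrial trifunctional protein of long-chain oxidation (0.94 and 0.93), followed by Myo19 (0.91 and 0.85) and Ugt1a7c (0.89 and 0.82). Reads of Ugt1a7c can be shared with other Ugt1a genes. Among the genes most like Acads were Mettl7b (0.82 and 0.84) and Hadh, the next dehydrogenase of short-chain oxidation (0.82 and 0.83). Acadm was followed by Ppp2r5a (0.89 and 0.86), the succinate dehydrogenase gene Sdha (0.88 and 0.85) and the monoamine oxidase gene Maoa (0.87 and 0.84). For Pparg the nearest were Ugdh (0.93 and 0.91), Cyp2c55 (0.92 and 0.93) and Abcc3 (0.91 and 0.91), which encode an enzyme that supplies glucuronic acid, a cytochrome P450 and an export pump. Ppara was most like Gpatch2 (0.94 and 0.91), Farp2 (0.93 and 0.90) and Bche (0.92 and 0.89). The profile of Slc5a8 was nearest to Cyp2c68 (0.92 and 0.91), Nxpe5 (0.91 and 0.87) and Htr4 (0.91 and 0.87). Pdk4 and Slc16a1 had looser neighbours, Hsdl2 (0.80 and 0.82), Emp1 (0.77 and 0.75) and Ncoa7 (0.76 and 0.77) for Pdk4, and Prkcd (0.76 and 0.78), Cept1 (0.74 and 0.68) and Sult1b1 (0.72 and 0.67) for Slc16a1.

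The other genes of these pathways were counted in 7 lists, some of which hold genes of the 8. In vehicle against sham mice, 13.5% of all genes were called lower, 18.2% higher and 31.7% in either direction, and the counts that follow stand beside these shares. Of 22 genes of mitochondrial beta-oxidation, 13 were called lower and 0 higher in vehicle than in sham mice, with a median of -0.21 beside 0.02 over all genes. Without the 4 libraries with pancreatic genes 11 were called lower, beside 1596 of all 17928 genes, against 2412 with every library. Acadm, Acads and Cpt1a are among the 13, so that 10 of the other 19 were called lower. Hadh averaged 49.8 ± 8.48 FPKM in vehicle mice against 67.1 ± 2.63 FPKM in sham mice (-0.43, adjusted p = 0.000362). Acadvl, the very long chain acyl-CoA dehydrogenase, averaged 43.7 ± 6.48 and 56.6 ± 2.01 FPKM in vehicle and sham mice (-0.37, adjusted p = 0.000231). With the epithelial sum as a covariate 7 of the 22 were called lower, beside 1817 of all 17928 genes. Of 11 peroxisomal genes 4 were called lower and 0 higher (median -0.21), beside 13.5% and 18.2% of all genes, among them the peroxisome division gene Pex11a at -0.54 (adjusted p = 0.000167) and the reductase Decr2 at -0.27 (adjusted p = 0.0174).

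Of 5 genes of ketone body synthesis and use, 1 was called lower, beside 13.5% of all genes. It was the thiolase Acat1, at 49.9 ± 6.16 FPKM in vehicle mice against 60.0 ± 2.68 FPKM in sham mice (-0.26, adjusted p = 0.00336). At 10, 30 and 90 mpk against vehicle 0 of the 5 were called by edgeR, beside 5.75%, 31.4% and 18.2% of all genes.

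Among 13 PPAR receptors, RXR partners and cofactors, 6 were called lower and 1 higher in vehicle mice (median -0.27). Ppara and Pparg are among the 6, and of the other 11 genes 4 were called lower and 1 higher, beside 13.5% and 18.2% of all genes. Ppargc1a, the coactivator of mitochondrial genes, averaged 5.10 ± 1.51 FPKM in vehicle mice against 9.28 ± 1.22 FPKM in sham mice (-0.86, adjusted p = 0.000151). The other PPAR receptor, Ppard, was at -0.41 (adjusted p = 0.000214) and the coactivator Ncoa1 at -0.44 (adjusted p = 0.000431). Of the 18 textbook PPAR targets tested out of 20, 7 were called lower and 4 higher in vehicle mice (median -0.28). Without the 4 libraries with pancreatic genes 4 were called lower and 1 higher, beside 1596 and 2452 of all 17928 genes, against 2412 and 3269 with every library. With every library kept and Acadm, Cpt1a and Pdk4 left out, 5 of the other 15 were called lower and 4 higher, beside 13.5% and 18.2% of all genes. The higher ones were Angptl4, Plin2, Acot1 and Creb3l3, and Creb3l3 averaged 2.69 ± 1.55 FPKM in vehicle mice against 1.30 ± 0.57 FPKM in sham mice (1.09, adjusted p = 0.0107). Of 11 genes of pyruvate dehydrogenase, its kinases and phosphatases, 7 were called lower and 1 higher (median -0.20), beside 13.5% and 18.2% of all genes. Without the 4 libraries with pancreatic genes 4 were called lower and 1 higher, beside the same 1596 and 2452 genes. Pdk4, also in this list, was not called. The higher one was the kinase gene Pdk3 at 11.96 ± 1.03 FPKM in vehicle mice against 9.22 ± 1.06 FPKM in sham mice (0.38, adjusted p = 0.000771), while the phosphatase Pdp2 (-0.56, adjusted p = 0.00148) and Pdk1 (-0.38, adjusted p = 0.0023) were lower.

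Of the 10 transporters and sensors of short acids tested out of 11, 4 were called higher and 2 lower in vehicle mice (median 0.08). The 2 were Slc16a7 and Slc5a8, and leaving out Slc5a8 and Slc16a1, 4 of the other 8 were called higher and 1 lower, beside 18.2% and 13.5% of all genes. Slc16a3, the lactate exporter of glycolytic cells, averaged 5.48 ± 4.42 FPKM in vehicle mice against 1.204 ± 0.17 FPKM in sham mice (2.23, adjusted p = 0.000198). Emb, a chaperone of such transporters, averaged 6.98 ± 6.03 FPKM in vehicle mice against 1.60 ± 0.25 FPKM in sham mice (2.16, adjusted p = 0.000327). Slc16a7, a relative of Slc16a1 with high affinity for pyruvate, was at -0.53 (adjusted p = 0.000153). Slc16a3, Emb and the butyrate receptor genes Hcar2 and Ffar2 rose where the neutrophil and macrophage marker sums given above were also higher, and the part of these cells in the rise was not tested.

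**Figure D4:**
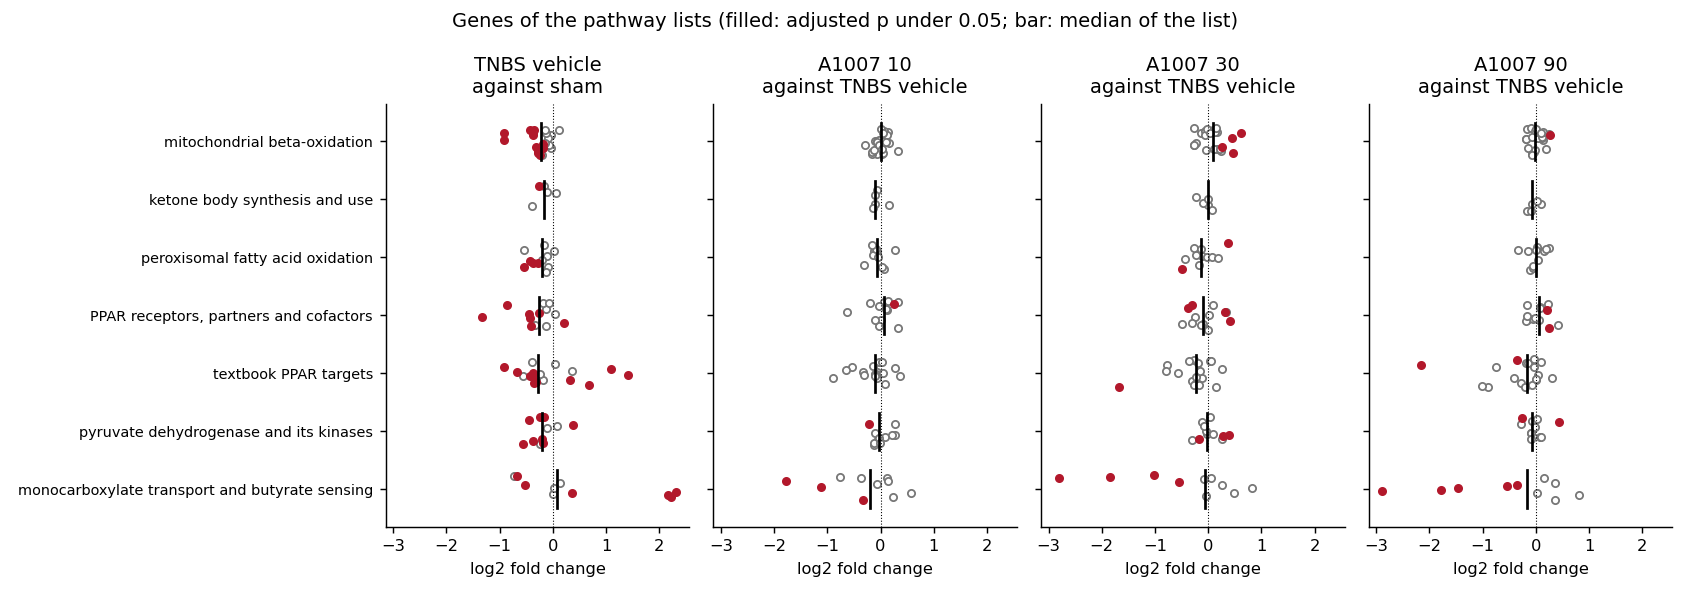
Log2 fold changes from edgeR of the tested genes of the 7 pathway lists (points, filled where called at an adjusted p under 0.05) with each list's median (bar), for vehicle against sham and for each A1007 dose against vehicle. In the first panel the medians of 6 lists lie between -0.28 and -0.16, and that of monocarboxylate transport and butyrate sensing lies at 0.08.

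Relative to vehicle, most genes of these lists were not called at any dose. Over all genes 2.83% were called higher and 2.91% lower at 10 mpk, 13.5% and 17.9% at 30 mpk, and 7.12% and 11.1% at 90 mpk. Of the 22 mitochondrial oxidation genes 0 were called at 10 mpk by edgeR, where Acadl, the most abundant, had 129.4 ± 15.95 FPKM against 133.7 ± 14.6 FPKM in vehicle mice (-0.06, adjusted p = 0.692). At 30 mpk 4 were called higher and 0 lower, beside 31.4% of all genes in either direction and 13.5% higher. Hadh averaged 66.7 ± 7.43 FPKM at 30 mpk against 49.8 ± 8.48 FPKM in vehicle mice (0.45, adjusted p = 0.000218). Eci1, an isomerase for unsaturated chains, averaged 19.3 ± 2.07 against 14.3 ± 2.44 FPKM (0.46, adjusted p = 0.000272), and Etfb, a subunit of the electron carrier of these dehydrogenases, 70.8 ± 13.7 against 46.6 ± 11.9 FPKM (0.61, adjusted p = 0.00579). The epithelial sum was higher at 30 mpk than in vehicle mice, and with it as a covariate 2 of the 22 were called higher and 1 lower, with Etfb at 0.40 (adjusted p = 0.104). Over all 17928 genes that fit called 1148 higher and 1864 lower. At 90 mpk Hadh was the 1 gene called (0.26, adjusted p = 0.0331), a call lost without A1007 90 mpk replicate 7 or 8 or vehicle replicate 2, 4, 5, 7, 8 or 9 (0.21 to 0.30, adjusted p up to 0.0902) and without the 4 libraries with pancreatic genes (0.21, adjusted p = 0.167). The Hadh call was also lost by a rank-sum test (adjusted p = 0.0745) and without the low-count filter (adjusted p = 0.0556). Of the 11 peroxisomal genes, at 30 mpk the thiolase Acaa1a was called higher (0.37, adjusted p = 0.00669; 0.26, adjusted p = 0.0964 with the epithelial covariate) and the fatty acid importer Abcd3 lower (-0.49, adjusted p = 0.0068), and at 10 and 90 mpk 0 were called by edgeR.

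The nuclear receptor gene Esrra and the RXR gene Rxrb were called higher at 30 and 90 mpk. Esrra, which works with Ppargc1a on oxidation genes, averaged 25.9 ± 2.84 FPKM at 30 mpk (0.42, adjusted p = 0.000137) and 23.9 ± 2.07 FPKM at 90 mpk (0.25, adjusted p = 0.0219), against 19.7 ± 2.43 FPKM in vehicle mice. The call at 90 mpk was lost without vehicle replicate 5 (adjusted p = 0.0603) and without the 4 libraries with pancreatic genes (0.23, adjusted p = 0.0505). A rank-sum test did not call Esrra at 90 mpk either (adjusted p = 0.0635). Rxrb averaged 11.6 ± 1.27 FPKM at 10 mpk (0.25, adjusted p = 0.0179), 11.9 ± 0.92 at 30 mpk (0.32, adjusted p = 0.000318) and 11.5 ± 1.199 at 90 mpk (0.21, adjusted p = 0.0166), against 9.73 ± 0.74 FPKM in vehicle mice. Without the 4 libraries with pancreatic genes its calls at 10 and 90 mpk were lost (0.23, adjusted p = 0.0975, and 0.20, adjusted p = 0.0800). Rxrb at 10 mpk was also not called with only the 2 groups fitted (adjusted p = 0.144) or by a rank-sum test (adjusted p = 0.126).

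Angptl4, a PPAR target that blocks lipoprotein lipase, was the 1 of 18 textbook targets called at 30 mpk, and Angptl4 and Plin2, the coat protein of lipid droplets, were the 2 called at 90 mpk, all lower. Angptl4 averaged 2.61 ± 1.11 FPKM at 30 mpk (-1.67, adjusted p = 0.000587) and 1.94 ± 0.72 FPKM at 90 mpk (-2.15, adjusted p = 7.81e-05), against 8.28 ± 6.40 FPKM in vehicle mice. Plin2 averaged 38.8 ± 4.12 FPKM at 90 mpk against 48.3 ± 12.05 FPKM in vehicle mice (-0.35, adjusted p = 0.0205). The Plin2 call was lost without vehicle replicate 5 or 9 (-0.40 to -0.28 over all mice left out in turn, adjusted p up to 0.0622) and without the 4 libraries with pancreatic genes (-0.27, adjusted p = 0.115). Plin2 was also not called by a rank-sum test (adjusted p = 0.1685) or with only the 2 groups fitted (adjusted p = 0.0562). At 10 mpk 0 of the 18 were called by edgeR, and Fabp2, the most abundant, was at 0.36 (adjusted p = 0.571).

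Of the pyruvate dehydrogenase genes, Pdk2 was called higher at 30 and 90 mpk and Pdk3 lower at all 3 doses. Pdk2 averaged 15.2 ± 1.43 FPKM at 30 mpk (0.39, adjusted p = 0.0169) and 16.3 ± 1.32 FPKM at 90 mpk (0.44, adjusted p = 0.0131), against 11.8 ± 3.52 FPKM in vehicle mice. Pdk3 averaged 10.4 ± 1.01 FPKM at 10 mpk, 10.4 ± 0.87 at 30 mpk and 10.3 ± 0.81 at 90 mpk, against 11.96 ± 1.03 FPKM in vehicle mice (-0.21, -0.17 and -0.25, adjusted p of 0.0431, 0.0357 and 0.00461). The Pdk3 call at 10 mpk was lost in 15 of the 40 fits that left out 1 mouse (-0.24 to -0.17, adjusted p up to 0.0842), and that at 30 mpk without A1007 30 mpk replicate 1 or 6 or vehicle replicate 2, 7 or 9 (-0.21 to -0.15, adjusted p up to 0.0602). Pdhb, a subunit of the complex, was higher at 30 mpk (0.28, adjusted p = 0.00604). Without the 4 libraries with pancreatic genes, Pdhb (0.22, adjusted p = 0.0515), Pdk2 at 30 mpk (0.30, adjusted p = 0.0696) and Pdk3 at 10 and 30 mpk (-0.20, adjusted p = 0.168, and -0.18, adjusted p = 0.0834) were not called. Pdk3 was not called without the 2 libraries low in Xist either, at -0.22 (adjusted p = 0.0601) at 10 mpk and -0.16 (adjusted p = 0.0559) at 30 mpk. A rank-sum test did not call Pdk2 at 30 mpk (adjusted p = 0.142) or 90 mpk (adjusted p = 0.0861). With only the 2 groups fitted Pdk3 was not called at 10 mpk (adjusted p = 0.202) or 30 mpk (adjusted p = 0.0834). At 30 mpk Pdk3 was also not called with voom weights (adjusted p = 0.102) or the epithelial covariate (adjusted p = 0.062). Pdhb at 30 mpk was not called with that covariate either (adjusted p = 0.0745).

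Emb and Hcar2 were called lower at all 3 doses, with Slc16a3 and the export pump gene Abcg2 lower at 30 and 90 mpk. Emb averaged 3.28 ± 1.70 FPKM at 10 mpk (-1.12, adjusted p = 0.0291), 1.93 ± 0.40 at 30 mpk (-1.85, adjusted p = 6.7e-05) and 2.10 ± 0.34 at 90 mpk (-1.79, adjusted p = 0.000153), against 6.98 ± 6.03 FPKM in vehicle mice. Hcar2, whose receptor binds butyrate and niacin, was at -1.77 (adjusted p = 0.0389), -2.80 (adjusted p = 0.00029) and -2.88 (adjusted p = 0.000354) at 10, 30 and 90 mpk. Both calls at 10 mpk were lost without A1007 10 mpk replicate 2, 7 or 9 or vehicle replicate 5 or 9, and that of Hcar2 also without A1007 10 mpk replicate 1, 6 or 10 or vehicle replicate 8, with values from -1.31 to -0.82 for Emb and from -2.40 to -0.96 for Hcar2. Without the 4 libraries with pancreatic genes Emb at 10 mpk was at -0.67 (adjusted p = 0.273) and Hcar2 at -1.15 (adjusted p = 0.225), and without the 2 libraries low in Xist Emb was at -1.13 (adjusted p = 0.0507) and Hcar2 at -1.71 (adjusted p = 0.0738). With only the 2 groups fitted, neither was called at 10 mpk (adjusted p of 0.223 for Emb and 0.2405 for Hcar2). A rank-sum test did not call them at 10 mpk either (adjusted p of 0.409 and 0.2998). Slc16a3 averaged 2.07 ± 0.44 FPKM at 90 mpk against 5.48 ± 4.42 FPKM in vehicle mice (-1.46, adjusted p = 0.00139), a call lost by a rank-sum test (adjusted p = 0.0861). Abcg2 averaged 6.78 ± 1.02 FPKM at 30 mpk against 10.1 ± 2.76 FPKM in vehicle mice (-0.54, adjusted p = 0.00344). Neutrophil and macrophage marker sums were lower at these doses as well, as given above, and their part in these falls was not tested.

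**Figure D5:**
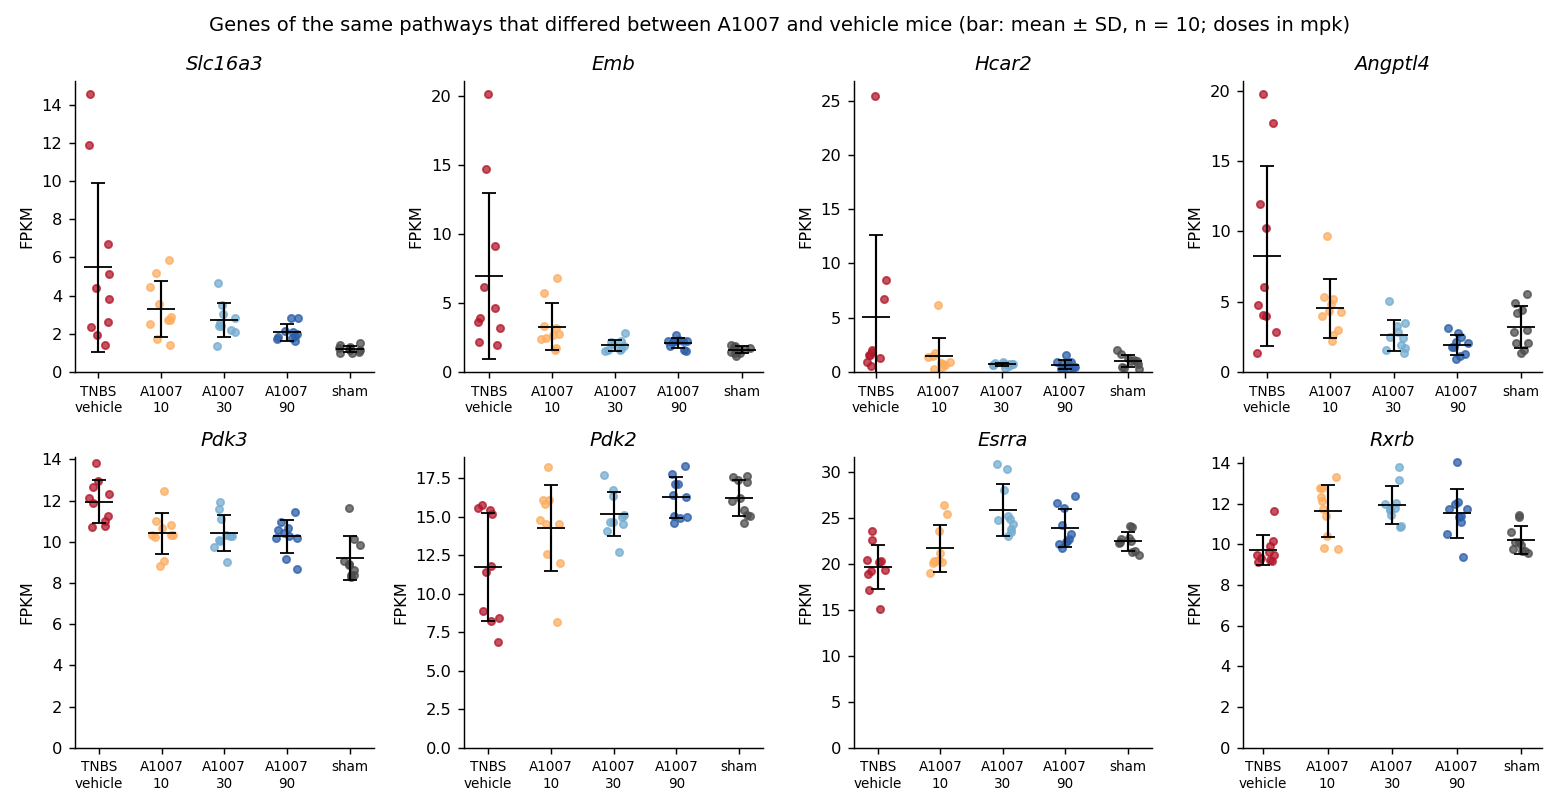
FPKM in each mouse (points) with the group mean and SD (bars, n = 10 mice; linear axes from 0) of 8 pathway genes called in at least 1 comparison of a dose with vehicle. The vehicle mice spread widely for Slc16a3, Emb, Hcar2 and Angptl4, whose means of 5.48, 6.98, 5.04 and 8.28 FPKM rest on a few high mice, while Pdk3, Esrra and Rxrb shift within narrow ranges.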

How the data were processed

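RNA-seq of colon from 50 mice was taken as deposited. Per the submitters' processing notes the tools were cutadapt 1.9.1, HISAT2 2.2.1, HTSeq 0.6.1 and DESeq2 with GRCm39; their settings and the strand of counting are not stated there, so overlapping and antisense genes may share reads. The authors deposited, per the file headers, raw read counts per gene, FPKM values, and each gene's exonic length in the same table. The deposited FPKM matched those recomputed from counts, lengths and totals within 1% for 99.997% of values with at least 500 counts. Totals were 14373337 to 20446967 counts, and no blank or summary rows were used.

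Counts were tested with edgeR 4.0.16 (quasi-likelihood, robust, TMM; R 4.3.3) on 17928 genes kept by filterByExpr with a minimum count of 10, over all 50 libraries. Comparisons with sham used the 20 mice of both groups. Dose comparisons, the trend over steps from vehicle to 90 mpk and comparisons between doses used the 40 TNBS mice. Benjamini-Hochberg adjusted p-values below 0.05 were called, and intervals are 95%. Alternatives used DESeq2 1.42.0, limma 3.58.1 on log2(FPKM + 0.5), voom weights, rank-sum tests and left-out libraries. The scripts were tested on simulated data. Correlations with neutrophil markers used 100000 permutations.

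The 8 genes, the 7 pathway lists and the marker lists (epithelium, fat cells, smooth muscle, macrophages, neutrophils, pancreatic acinar cells and Ptprc) were chosen with earlier results of these data known. Pathway genes are named by rule: in vehicle against sham and each dose against vehicle, up to 3 called genes with the smallest adjusted p per list, and where none was called the most abundant. Counts of other called genes are named after their values were seen, as were the genes plotted by mouse. Some genes that this rule or the likeness search named are not reported here.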

Additional observations from a re-analysis of the deposited data

Results flagged for a closer look

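Each of the 8 genes was checked in each of the 5 groups of 10 mice, 40 groups of values, for a mouse whose gap to the nearest other mouse, as a share of the group's range, passed Dixon's critical value at 95%. Chance marks about 1 in 20 such groups, and 2 of the 40 were marked. Cpt1a in vehicle replicate 9 was 20.83 FPKM, with the next vehicle mouse at 30.98 FPKM, a gap of 0.565 of the range. This mouse had the highest neutrophil marker sum of the 50, 4586 CPM. Slc16a1 in A1007 90 mpk replicate 8 was 66.52 FPKM, with the next mouse of that dose at 55.28 FPKM, a gap of 0.499 of the range. The calls of Cpt1a in vehicle against sham and of Slc16a1 at 90 mpk against vehicle held without these mice.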

How the results depend on the processing

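Apart from left-out mice, the results of the 8 genes kept direction and side of the threshold in 893 refits, moved past the threshold in 26, fell short of it in 20 and turned sign in 29, each of the 29 uncalled in both fits; unless stated, the cause was not tested. In vehicle against sham 6 genes were called, 3 with the epithelial covariate and 5 to 6 without 1 mouse. Over all genes the calls there were 5681, and 4476 with the covariate. Slc5a8 there was lost without the low-count filter (-0.68, adjusted p = 0.0709) and Acads with all 50 mice fitted (-0.24, adjusted p = 0.0537). At 10 mpk against vehicle 1 gene was called, and 0 without the filter, with limma on FPKM, by rank-sum, with only the 2 groups or without the 2 libraries low in Xist (0 to 1 without 1 mouse). At 30 mpk 0 were called, but 1 with the replicate block, limma, voom weights, rank-sum or all 50 mice (0 to 1 without 1 mouse). At 90 mpk 1 was called without any 1 mouse. The trend had 0, and 1 with the replicate block, limma or voom weights (0 to 1 without 1 mouse). With all 50 mice, calls against sham were 3 at 30 mpk and 4 at 90 mpk, beside 9008 and 4399 of all 17928 genes. For 90 against 30 mpk 0 were called, and 2 with voom weights, rank-sum or only the 2 groups; without 1 mouse all comparisons between doses stayed at 0.

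Replicate numbers rise with the numbers in the library names within each group, and none of those library numbers recurs in another group. The labels therefore give no pairing of mice by replicate number, and the replicate block was run only as an alternative. Of 100 same-numbered pairs 31 correlated above 0.1 (-0.356 to 0.513, median -0.017), and pairs with different numbers were not compared. With the replicate block Slc5a8 was called at 30 mpk against vehicle (0.58, adjusted p = 0.0191) and in the trend (0.18 per step, adjusted p = 0.0321), Pdk4 was called at 90 mpk against sham (-0.61, adjusted p = 0.0278), and genes called for 90 against 30 mpk went to 586 instead of 66.

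Signs turned as follows. At 10 mpk against vehicle, with voom weights Acadm was at -0.035 and Slc5a8 at -0.066, and Slc5a8 was at -0.13 without the libraries with pancreatic genes. Pparg at 30 mpk was at -0.0012 with limma, -0.091 with voom weights, -0.033 without low Xist and -0.060 without pancreatic genes. Pparg at 90 mpk was at -0.016 with voom weights and -0.00072 without pancreatic genes, and its trend at -0.015 with voom weights, -3e-05 without low Xist and -0.014 without pancreatic genes. Against sham, Pdk4 at 10 mpk was at -0.17 with the replicate block and with limma, -0.044 with voom weights, -0.14 with the covariate and -0.19 by rank-sum, and Acads at 30 mpk was at 0.011 without low Xist. For 90 against 30 mpk Pdk4 was at -0.079 with the replicate block, -0.12 with voom weights, -0.21 with the covariate, -0.033 by rank-sum and -0.011 without low Xist, and Slc5a8 at 0.032 with the covariate. For 90 against 10 mpk Pparg was at 0.038 with limma and 0.015 by rank-sum, Slc16a1 at 0.021 with limma and 0.0076 with the covariate, and Cpt1a at -0.016 with voom weights. Without 1 mouse, ranges that crossed 0 were -0.028 to 0.068 for Slc16a1 in vehicle against sham; -0.0016 to 0.19 for Pparg and -0.020 to 0.25 for Slc5a8 at 10 mpk; -0.043 to 0.075 for Pparg at 30 mpk; -0.11 to 0.0084 for Cpt1a at 90 mpk; -0.0081 to 0.025 for the Pparg trend; -0.14 to 0.13 for Pdk4 at 90 against 30 mpk. At 90 against 10 mpk they were -0.0079 to 0.14 for Cpt1a, -0.00038 to 0.070 for Acadm, -0.017 to 0.080 for Acads, -0.013 to 0.37 for Ppara, -0.12 to 0.063 for Pparg and -0.063 to 0.053 for Slc16a1.

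Over all genes, calls at 10 mpk against vehicle were 1030, but 545 without the filter, 599 with limma, 669 with voom weights, 0 by rank-sum (2431 at an unadjusted p under 0.05, against 4087 by edgeR), 1749 with all 50 mice, 4 with only the 2 groups, 580 without low Xist, 153 without pancreatic genes and 494 to 2436 without 1 mouse. At 30 mpk they were 5625, but 3012 with the covariate and 3694 without pancreatic genes; at 90 mpk 3266 and 1540 without pancreatic genes; for the trend 3460 and 1588 without pancreatic genes; at 90 mpk against sham 8111 and 4399 with all 50 mice. Between doses they ranged over the alternatives from 40 to 3527 around 361 for 30 against 10 mpk, from 9 to 3072 around 66 for 90 against 30 mpk and from 10 to 181 around 18 for 90 against 10 mpk. Higher calls were 49.3% at 10 mpk, 39.1% at 90 mpk and 35.2% in the trend, against 59.4%, 55.5% and 51.3% with limma on FPKM. Depth limits Ppara most, with 18 counts in 1 vehicle mouse. The low-Xist and pancreatic alternatives were chosen after seeing the data.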
